A study of Mus musculus with 14 samples.

Results

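Oxidative phosphorylation subunits are the proteins of the mitochondrial inner membrane that carry electrons from fuel to oxygen and make ATP. Their genes were taken by symbol from the platform annotation: every symbol that begins with Nduf, Uqcr, Atp5, Cox4, Cox5, Cox6 or Cox7 (except Cox7a1), with Sdha, Sdhb, Sdhc, Sdhd and Cycs. This gave 93 probe sets of 68 genes, out of 8251 genes with a probe set of their own on the array. Complex I held 29 of the genes, complex II 4, complex III 7, complex IV 11 and complex V 14. Cycs encodes the carrier cytochrome c, and 2 genes (Ndufaf1 and Ndufaf4) encode assembly factors that the prefix also takes in. A filter on dim signals left 74 probe sets to test, and 63 of the 68 genes were represented by their brightest tested probe set. The other 5 genes (Ndufa12, Ndufc2, Ndufs4, Cox5a and Atp5j2) had no probe set above it. A further 10 probe sets that the annotation assigns to a member together with another gene or pseudogene were not counted as members.

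The samples came from MMTV-neu mice, in which the mouse mammary tumor virus promoter drives the neu oncogene in mammary epithelium, and from wild-type mice. There were 5 neu tumors (22, 24, 26, 50 and 52, called Tumor) and 2 further neu tumors that were labelled apart as set B (80 and 81, Tumor_setB). The 4 AdjacentNeu samples (23, 25, 49 and 51) were preneoplastic neu gland lying beside tumor, and the 3 AMWT samples (40, 41 and 42) were age-matched wild-type gland. Each AMWT sample was RNA pooled from 5 mice: pool 40 at 31 weeks, of 87.5% FVB and 12.5% CF-1 background, and pools 41 and 42 at 41 weeks, of 97% FVB and 3% CF-1. The labels used here give neither age nor strain share for the neu samples, and they do not say that each tumor or gland came from its own animal, so each p-value speaks only of how these samples vary, which may be technical.

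Complex I takes electrons from NADH and complex II takes them from succinate, which makes complex II an enzyme of the citric acid cycle as well. Both pass electrons through ubiquinone to complex III, cytochrome c carries them on to complex IV, and complex IV hands them to oxygen. Complexes I, III and IV pump protons, and complex V, the ATP synthase, lets the protons back to make ATP. Brown fat and striated muscle are rich in mitochondria. The mouse mammary gland is embedded in fat, and a sample of whole gland can carry RNA of such tissues beside that of epithelium. In bulk tissue, fewer cells of a type and less RNA per cell cannot be told apart.

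The arrays differed in marker genes of several tissues and in array lot. The part of tissue content in the comparisons of the members was not tested. Marker genes were called in tumors against the pools at an adjusted p under 0.05 (limma). Over all probe sets tested, 14.1% were called lower and 15.8% higher. Called lower were all 10 white adipocyte genes, all 10 fibroblast genes and 4 of 5 brown adipocyte genes. Of 22 skeletal muscle genes 16 were called lower and 1 higher. Also called lower were 7 of 9 endothelial genes, 6 of 7 basal genes, 2 of 8 macrophage genes and 0 of 4 lymphocyte genes. Of 13 luminal genes 10 were called higher and 1 lower. Called or not, 6 of 8 macrophage genes and all 4 lymphocyte genes had a log2 difference below 0. The mean log2 intensity of the white adipocyte list was 13.67 to 14.09 in the pools, 12.70 to 13.42 in adjacent gland, 8.23 to 8.99 in tumors and 8.44 to 8.65 in set B. Tumors 22, 24 and 26 shared array lot 2001815 with glands 23 and 25, glands 49 and 51 shared lot 2004907 with pool 40, and tumors 50 and 52 (2004097), pools 41 and 42 (2003877) and set B (2006609) each had their own. The log2 ratio of the 3' to the 5' actin control probe set, a sign of RNA length, was 0.90 to 1.51 in the pools, 1.13 and 1.52 in glands 23 and 25, 0.38 and 0.63 in glands 49 and 51, and 0.08 to 0.76 in the 7 tumors. The same ratio for Gapdh did not follow that order. It was 0.17, 0.11 and 1.48 in pools 40, 41 and 42, and -0.50 to 0.43 in the tumors. In glands 23 and 25 it was -0.27 and 0.01, and in glands 49 and 51 it was 0.27 and 0.07.

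Tumors were compared with wild-type gland to ask which subunit genes differ once a tumor has formed. Of the 63 member genes tested, 26 were lower in tumors than in the AMWT pools and 1, Ndufa1, was higher, at an adjusted p under 0.05 (limma, Benjamini-Hochberg adjustment over all 8616 probe sets tested). Over all probe sets tested, 14.1% were called lower and 15.8% higher in this comparison. The median log2 difference of the member genes was -0.53, against 0.16 for all probe sets tested. The lower genes came from all 5 complexes and were shared out unevenly: 12 of 26 in complex I, 4 of 4 in complex II, 4 of 7 in complex III, 4 of 10 in complex IV and 1 of 13 in complex V, with Cycs beside them. In 34 of the 63 genes every tumor lay below every pool, against 16.1% of all probe sets. Counted by probe set there were 26 lower and 2 higher calls of 74, and this count of 28 fell to 18 when pool 41 or pool 42 was left out, where 21.5% and 20.6% of all probe sets were called in either direction. Of the 26 lower genes, 20 rest on a probe set without a suffix letter; the other 6 carry a letter (such as _f or _s) that marks probes shared between related sequences or chosen by relaxed rules.

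**Figure D1:**
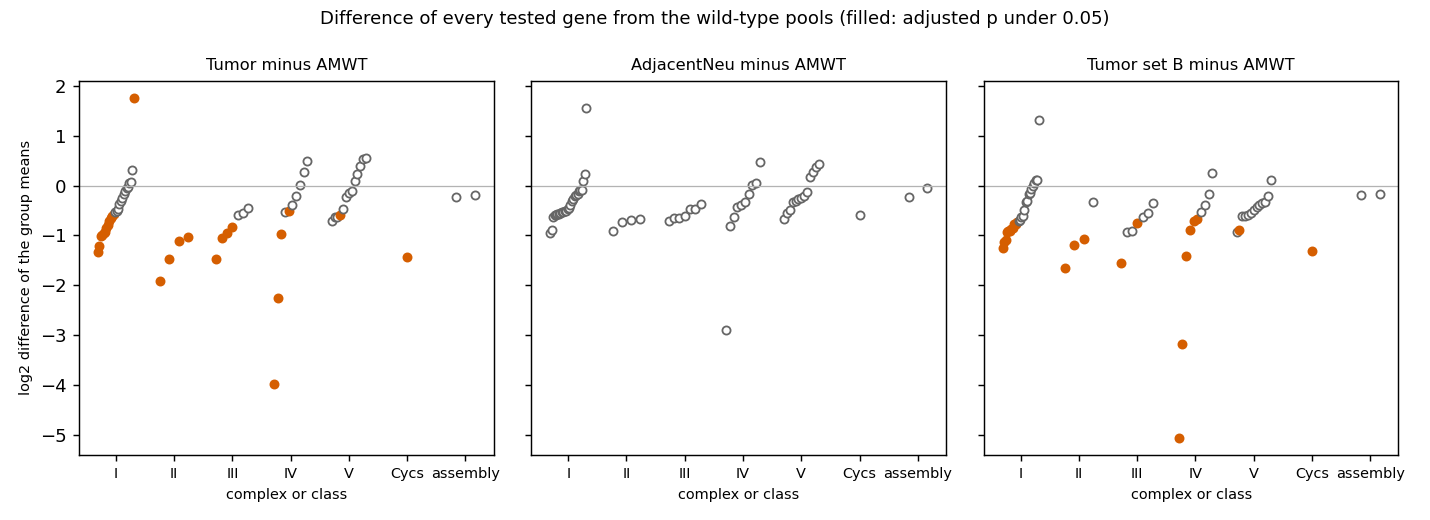
Each point is 1 of the 63 tested member genes, placed by its complex (x axis) and by the log2 difference of its group mean from the 3 wild-type pools (y axis); filled points have an adjusted p under 0.05. In the tumor panel all 4 genes of complex II are filled and lie between -1.92 and -1.04, 12 of 13 genes of complex V are open, and no point is filled in the adjacent gland panel.

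Complex II showed the fall most evenly among its members. Sdha encodes the flavoprotein that oxidises succinate. Its intensity was 3631, 2894 and 3343 in pools 40, 41 and 42, 1221, 1299, 1851 and 3119 in adjacent glands 23, 25, 49 and 51, 764, 832, 749, 978 and 1052 in tumors 22, 24, 26, 50 and 52, and 1366 and 1488 in the set B tumors. All 5 tumors lay below all other arrays, and among the adjacent glands 23 and 25 were low while 51 reached the pools. Sdha was 3.78-fold lower in tumors than in the pools (log2 difference -1.92, SE 0.27, adjusted p = 5.73e-05, limma). Sdhb encodes the iron-sulfur subunit that passes electrons from the flavoprotein towards ubiquinone. It measured 12490, 15422 and 17698 in the pools, 7532, 6478, 9731 and 14327 in the adjacent glands, 5081, 4202, 5895, 5802 and 6217 in the tumors, and 5404 and 4238 in set B. Here too no tumor reached the lowest adjacent gland, and the fall from the pools was 2.79-fold (log2 difference -1.48, SE 0.23, adjusted p = 0.000179, limma). Sdhc and Sdhd encode the membrane anchors that hold the ubiquinone site. Sdhc was at 14869 to 15503 in the pools and 6395 to 8914 in the tumors, a 2.05-fold fall (adjusted p = 0.000715, limma). Sdhd was at 14115 to 16573 in the pools and 5333 to 8960 in the tumors, a 2.17-fold fall (adjusted p = 0.00147, limma). For both anchors the tumors overlapped adjacent glands 23 and 25, which measured 8500 and 6944 for Sdhc and 7786 and 7303 for Sdhd.

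The promoters of Sdha, Sdhb, Sdhd and Cycs are shown because these genes were lower in tumors and hold matches to motifs of factors known to drive respiratory genes. They come from the RefSeq promoter table of build GRCm38.p6, which runs from 250 bases before to 50 bases after a gene's start and holds 56 of the 68 member genes with 61 promoters. Capitals mark matches on either strand to 5 short motifs: GCGCATGC and GCGCANGCG, forms of the site of NRF1 (nuclear respiratory factor 1), CCGGAAG, the core of ETS factors such as GABP, AAGGTCA, the site of estrogen-related receptors, and AAGATGG, the site of YY1. The first pair can overlap where a T fills the N. The Sdha promoter lies at chr13:74350191-74350490 on the minus strand, that of Sdhb at chr4:140961021-140961320 on the plus strand, that of Sdhd at chr9:50603800-50604099 on the minus strand, and that of Cycs at chr6:50566520-50566819 on the minus strand.
Sdha: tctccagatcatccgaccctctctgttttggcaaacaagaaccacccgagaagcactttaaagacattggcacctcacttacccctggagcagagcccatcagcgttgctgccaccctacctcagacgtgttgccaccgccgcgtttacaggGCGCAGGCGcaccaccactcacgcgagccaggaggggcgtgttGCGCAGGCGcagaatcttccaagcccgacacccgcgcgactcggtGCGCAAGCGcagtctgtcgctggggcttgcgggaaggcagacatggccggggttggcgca
Sdhb: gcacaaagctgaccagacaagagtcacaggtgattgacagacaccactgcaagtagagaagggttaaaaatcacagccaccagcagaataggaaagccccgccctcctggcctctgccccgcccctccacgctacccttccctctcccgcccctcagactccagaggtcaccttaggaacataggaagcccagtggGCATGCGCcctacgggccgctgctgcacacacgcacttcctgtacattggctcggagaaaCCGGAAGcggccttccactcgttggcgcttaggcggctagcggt
Sdhd: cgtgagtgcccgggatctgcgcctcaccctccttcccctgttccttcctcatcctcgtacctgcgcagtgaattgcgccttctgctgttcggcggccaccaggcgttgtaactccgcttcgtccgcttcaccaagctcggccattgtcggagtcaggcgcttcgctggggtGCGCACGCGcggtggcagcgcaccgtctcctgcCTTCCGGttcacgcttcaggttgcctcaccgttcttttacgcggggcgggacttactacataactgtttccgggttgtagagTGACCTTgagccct
Cycs: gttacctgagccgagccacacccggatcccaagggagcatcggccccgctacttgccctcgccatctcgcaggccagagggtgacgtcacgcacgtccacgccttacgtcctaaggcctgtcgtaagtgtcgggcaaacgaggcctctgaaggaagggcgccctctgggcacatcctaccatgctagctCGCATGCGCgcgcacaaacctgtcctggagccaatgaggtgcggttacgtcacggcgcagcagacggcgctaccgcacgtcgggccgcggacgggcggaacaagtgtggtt
Each of the 4 holds at least 1 of the NRF1 forms, but they were chosen for holding matches, so this is no result. Ndufab1, Ndufb3, Ndufv1, Uqcr10 and Cox6b2 were also lower in tumors, and their promoters hold no match to the 5 motifs. Atp5g2, Ndufa6 and Uqcr11 hold NRF1 forms and were not called at their brightest probe sets. The capitals in Sdha are 3 matches to GCGCANGCG, those in Sdhb are GCGCATGC and CCGGAAG, those in Sdhd are GCGCANGCG, CCGGAAG and AAGGTCA, and those in Cycs are GCGCATGC and GCGCANGCG. Among the 61 member promoters GCGCATGC was found in 11, GCGCANGCG in 17, CCGGAAG in 15, AAGGTCA in 5 and AAGATGG in 8. Among all 32851 promoters of the table the shares were 2.71%, 6.25%, 8.86%, 4.72% and 6.34%, with no matching of base composition. The factors themselves were measured in part. Gabpa, which encodes the DNA-binding subunit of GABP, was 1.62-fold higher in tumors (adjusted p = 0.0497, limma). That call was lost when array lot was put in the fit as a fixed block. Esrra, an estrogen-related receptor gene picked after its value was seen, differed by 0.01 on the log2 scale (adjusted p = 0.971, limma).

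Complex I had the largest number of lower genes. Its redox core includes Ndufv1, the NADH-binding flavoprotein, and Ndufs1, the large iron-sulfur subunit. Ndufv1 measured 18750, 21025 and 21946 in pools 40, 41 and 42, 13647, 10406, 15384 and 19231 in adjacent glands 23, 25, 49 and 51, 9501, 12598, 11649, 10241 and 7977 in tumors 22, 24, 26, 50 and 52, and 10928 and 8591 in set B. Every tumor lay below every pool, while adjacent glands and tumors overlapped. Ndufv1 had a geometric mean of 10263 in tumors against 20529 in the pools (SE of the log2 difference 0.20, adjusted p = 0.00151, limma) and Ndufs1 was 1.95-fold lower (adjusted p = 0.00191, limma). Both were picked for their role after their values were seen, as were the core genes Ndufs3 and Ndufv2. Ndufs3 was 1.64-fold lower (adjusted p = 0.0192, limma), but Ndufv2 was not called (-0.17, adjusted p = 0.507, limma). A dimmer probe set of Ndufv2 was at 0.47 (adjusted p = 0.277, limma). Among the accessory subunits some falls were as large as those of Ndufv1 and Ndufs1. Ndufab1, the mitochondrial acyl carrier protein that sits in complex I, measured 12488, 14089 and 14380 in the pools, 7255, 6511, 6124 and 8537 in the adjacent glands, 7004, 6280, 5592, 7229 and 2682 in the tumors, and 6459 and 5981 in set B. All 4 adjacent glands and all 7 tumors lay below all pools for this gene, and tumor 52 was far below the rest. The fall in tumors was 2.50-fold (log2 difference -1.32, SE 0.26, adjusted p = 0.00118, limma). Ndufb3, a membrane-arm subunit, measured 13095, 11657 and 10352 in the pools, 4209, 4450, 6397 and 12693 in the adjacent glands, 4211, 3921, 4937, 4646 and 8598 in the tumors, and 5097 and 4670 in set B. Tumor 52 was the highest tumor here, and adjacent gland 51 reached the pools. Ndufb3 fell 2.31-fold (adjusted p = 0.00876, limma), and Ndufb9, a further membrane-arm subunit, fell 2.01-fold (adjusted p = 0.00542, limma).

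Not all of complex I moved. Ndufb11, a membrane-arm subunit, measured 8566, 8716 and 9494 in the pools and 7806 to 9839 in the tumors, ranges that overlap, with a log2 difference of -0.02 (SE 0.24, adjusted p = 0.951, limma). That value was 0.04 after quantile normalization, so it has no settled sign. Ndufa1, a small accessory subunit, went against its complex: it measured 174, 123 and 378 in the pools, 526, 1905, 439 and 275 in the adjacent glands, 647, 900, 623, 639 and 623 in the tumors, and 399 and 626 in set B. Every tumor lay above every pool. Ndufa1 was 3.38-fold higher in tumors (log2 difference 1.76, SE 0.51, adjusted p = 0.0162, limma), and the call was lost without pool 40 (1.66) or pool 41 (1.40). Its second probe set did not pass the filter. The 13 complex I genes that were not called ran from -0.53 (Ndufa7) to 0.31 (Ndufa10) in log2 difference, and the median of the complex was -0.52.

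In complex III 4 of 7 genes were lower in tumors: Uqcrq, Uqcr10, Uqcrh and Uqcrc1. Uqcrq, a small subunit also known as a ubiquinone-binding protein, measured 28081, 30238 and 34275 in the pools, 14478, 15098, 21269 and 31502 in adjacent glands 23, 25, 49 and 51, 9775, 10332, 13840, 10834 and 10738 in the tumors, and 11990 and 9218 in set B. No tumor reached the lowest adjacent gland, and gland 51 lay among the pools. The fall from the pools was 2.79-fold (log2 difference -1.48, SE 0.23, adjusted p = 0.000155, limma). Uqcr10, a further small subunit, fell 2.08-fold (adjusted p = 0.00803, limma). Uqcrc1, a core protein, fell 1.94-fold (adjusted p = 0.0137, limma), a call lost without pool 41 (-0.88) or pool 42 (-0.94). Uqcrh, the hinge protein that helps cytochrome c dock, fell 1.77-fold (adjusted p = 0.0387, limma); without tumor 24, or without pool 40, 41 or 42, the call was lost at -0.58, -0.86, -0.91 and -0.71. Uqcrb, which showed the smallest difference of the complex, was at 12246 to 14498 in the pools and 7883 to 11439 in the tumors, ranges without overlap, with an adjusted p of 0.0567 (limma). The other core protein, Uqcrc2 (-0.60, adjusted p = 0.13, limma), and the small subunit Uqcr11 (-0.55, adjusted p = 0.0878, limma) did not pass the test. Cyc1, the cytochrome c1 of complex III, which the symbol rule leaves out and which was picked after its value was seen, fell 1.91-fold (adjusted p = 0.00569, limma).

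Cycs encodes the electron carrier between complexes III and IV. It measured 2047, 1692 and 2038 in the pools, 871, 1630, 1087 and 1732 in adjacent glands 23, 25, 49 and 51, 844, 1182, 697, 481 and 551 in the tumors, and 792 and 750 in set B. Every tumor was below every pool, and the adjacent glands covered the range between them without following the split seen for complex II. The fall in tumors was 2.69-fold (log2 difference -1.43, SE 0.30, adjusted p = 0.00194, limma).

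Complex IV differed by isoform. Cox6a1 is the form of subunit VIa made in most tissues, and Cox6a2 is the form of heart and skeletal muscle. Cox6a1 measured 43094, 41393 and 53940 in the pools, 25292, 24330, 33998 and 36375 in the adjacent glands, 25347, 24028, 23422, 22294 and 21386 in the tumors, and 18075 and 16490 in set B, a 1.97-fold fall in tumors (adjusted p = 0.000576, limma). Cox6a2 measured 5099, 2129 and 3567 in the pools, 2235 and 1829 in adjacent glands 23 and 25, 95.2 and 85.7 in glands 49 and 51, 165, 247, 405, 93.5 and 267 in the tumors, and 92.8 and 98.2 in set B. The forms split the adjacent glands in opposite ways: 23 and 25 were lower than 49 and 51 for Cox6a1 and higher for Cox6a2. Values under 101 lie below the floor that was set for dim signals. With tumor 50 at the floor, Cox6a2 was at least 15.8-fold lower in tumors (log2 difference -3.98, SE 0.89, adjusted p = 0.00316, limma). The skeletal muscle list ran with it: its mean log2 intensity was 10.46 to 11.56 in the pools, 10.55 and 10.40 in glands 23 and 25, 8.01 in both 49 and 51, 7.86 to 9.01 in the tumors and 7.80 to 7.84 in set B. The part of muscle tissue in the Cox6a2 difference was not tested.

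Of the other genes that the symbol rule placed in complex IV, Cox6b2 and Cox6c were lower in tumors. Cox6b2, annotated as the testis form of subunit VIb and measured by a probe set with the suffix _f, was at 780, 1171 and 842 in the pools, 394 to 670 in the adjacent glands, 360, 29, 186, 81.1 and 385 in the tumors, and 54.5 and 67.6 in set B. With tumors 24 and 50 at the floor it was at least 4.76-fold lower (adjusted p = 0.00156, limma), and its 2 other probe sets did not pass the filter. Cox6b1, the form made in most tissues, was at 610 to 927 in the pools and 772 to 1536 in the tumors and was not called (log2 difference 0.50, adjusted p = 0.23, limma). Cox6c, a small subunit, fell 1.42-fold (adjusted p = 0.0393, limma). Cox5b, a subunit that binds zinc, was not called in tumors (-0.54, adjusted p = 0.0755, limma), nor were Cox7a2 (-0.39), Cox7a2l (0.27), Cox7b (0.01) and Cox4i1, whose probe sets gave -0.21 and 0.54. The smallest of these, that of Cox7b, changed sign when arrays were centred on their medians (-0.06). Outside the rule, the muscle and brown fat isoforms Cox7a1 and Cox8b fell 2.65-fold (adjusted p = 0.0459, limma) and 7.20-fold (adjusted p = 2.34e-05, limma).

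Complex V was the complex with the fewest calls. Atp5l, subunit g of the membrane part, measured 23680, 26981 and 30242 in the pools, 20138, 19790, 21942 and 23581 in the adjacent glands, 18798, 16092, 19730, 21189 and 14365 in the tumors, and 20201 and 15205 in set B. The tumors lay below the pools with a narrow gap. The log2 difference was -0.59 (SE 0.17, adjusted p = 0.0179, limma), and without pool 41 or 42 the call was lost at -0.58 and -0.50. Atp5j, the coupling factor of the stalk, was at 8916, 10093 and 10795 in the pools and at 9982, 10938, 11676, 10931 and 9245 in the tumors. These ranges overlap, with tumors 24, 26 and 50 above every pool (log2 difference 0.09, SE 0.14, adjusted p = 0.675, limma). Atp5k (-0.72), Atp5md (-0.63) and Atp5mpl (-0.62), small membrane subunits, had adjusted p of 0.0939, 0.0554 and 0.0595 (limma). The genes of the proton-carrying ring, subunit c, did not pass the test at their brightest probe sets: Atp5g1 differed by 0.24 and Atp5g2 by 0.53. A dimmer probe set of Atp5g1, at 186 to 256 in the pools and 309 to 1179 in the tumors, was called higher (1.33, adjusted p = 0.0314, limma). The 5 tested probe sets of Atp5d, a stalk subunit picked because it has so many, ran from -0.21 to 1.35 without a call. The median of complex V was -0.15 over 13 genes but 0.16 over 20 probe sets, so its direction depends on how probe sets are taken. Atpif1, outside the rule and picked after its value was seen, which encodes the inhibitor that stops the synthase from running backwards, rose 1.89-fold in tumors (adjusted p = 0.000483, limma).

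**Figure D2:**
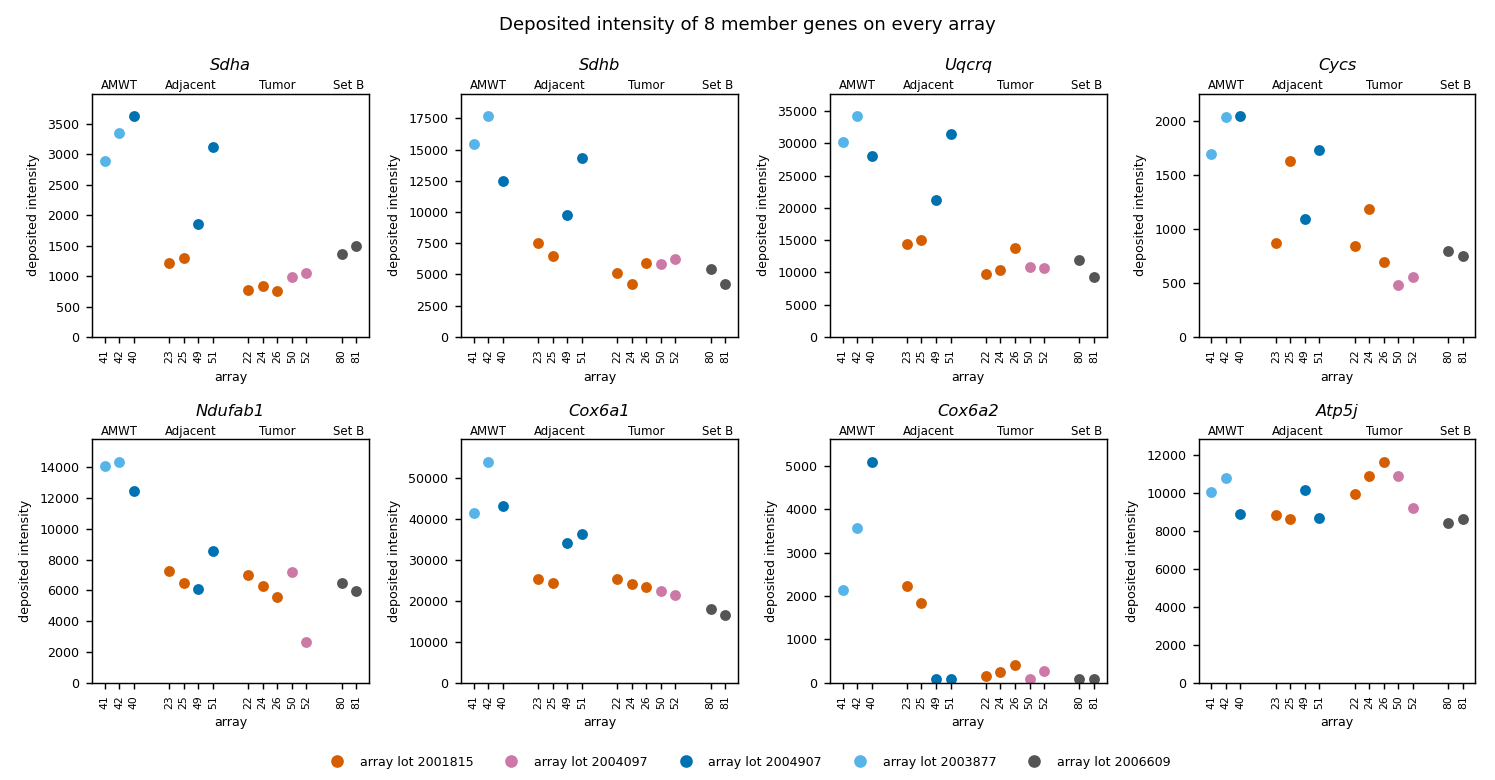
Deposited intensity (linear y axis from 0) of 8 member genes on each of the 14 arrays (x axis, by group), with points coloured by array lot. For Sdha, Sdhb and Uqcrq all 5 tumors lie below all adjacent glands, Cox6a2 is near 100 in adjacent glands 49 and 51 but near 2000 in 23 and 25, and the groups overlap for Atp5j.

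The adjacent gland was compared with wild-type gland to ask which differences are already there beside a tumor. No member gene passed the test between AdjacentNeu and AMWT (0 of 63, limma), while 26 had an unadjusted p under 0.05. The share of all probe sets at that unadjusted threshold was not counted, so 26 has no background to be set against. Over all probe sets tested, 0.453% were called lower and 0.72% higher at an adjusted p under 0.05. The median log2 difference of the member genes was -0.44, against 0.07 for all probe sets, with -0.46 in complex I, -0.71 in complex II, -0.62 in complex III, -0.35 in complex IV and -0.26 in complex V. Every adjacent gland lay below every pool for 12 of 63 genes, against 6.82% of all probe sets. Gland 51 was the array nearest to the pools, and without it 5 of 74 member probe sets were called, where 2.32% of all probe sets were called in either direction, among them Sdha (-1.19), Sdhb (-0.95), Uqcrq (-0.88) and Ndufb3 (-1.24).

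The adjacent glands split by array lot. Glands 23 and 25 both lay below glands 49 and 51 for 45 of 63 genes, against 19.2% of all probe sets: 20 of 26 in complex I, 4 of 4 in complex II, 7 of 7 in complex III, 7 of 10 in complex IV and 7 of 13 in complex V, but not Cycs. Tested against each other in a fit with a mean for each group and lot, chosen after seeing the data, 1 gene was lower in 23 and 25 (Atp5mpl, -0.96, adjusted p = 0.0498, limma) and 1 was higher (Cox6a2, 4.32, adjusted p = 0.00465, limma), against 1.6% of all probe sets called in either direction. In a further fit chosen after seeing the data, which split tumors and glands by lot but kept the 3 pools as 1 group, glands 23 and 25 were lower than the pools in 23 of 63 genes and higher in 1, against 2.94% of all probe sets called lower. These 23 held 11 genes of complex I, 4 of complex II, 5 of complex III, 1 of complex IV and 2 of complex V. Glands 49 and 51 were lower than the same pools in 1 gene, Cox6a2 (-5.06, adjusted p = 0.000133, limma), against 0.464% of all probe sets. The pools are shared by both comparisons, so their values stand side by side: the median of complex II was -1.08 in glands 23 and 25 and -0.37 in glands 49 and 51. The scaled arrays also differed in shape: the median over all probe sets was 713 and 784 in glands 23 and 25, but 609 and 616 in 49 and 51. Most members are bright, with a median intensity of 10404 to 11592 in the pools, and the 19.2% share is not matched for brightness. Some dim members, such as Ndufa1, Cox6b1 and Atp5g1, were higher in 23 and 25. The part of scaling and brightness in this split was not tested.

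**Figure D3:**
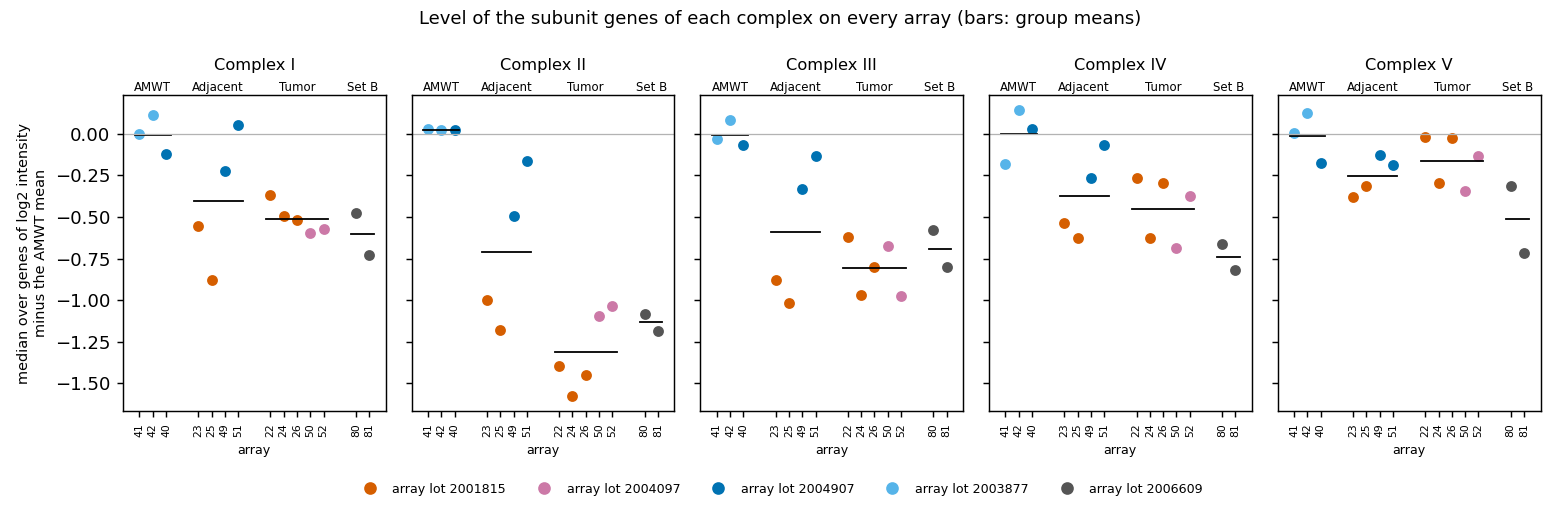
The level of each complex on each array (x axis, by group) is the median over its genes of log2 intensity minus the gene's mean in the wild-type pools (y axis); points are coloured by array lot and bars mark group means. For complex II the pools lie at 0.02 to 0.03, gland 25 lowest of the adjacent glands at -1.18, glands 49 and 51 at -0.49 and -0.16, and the 5 tumors between -1.58 and -1.04.

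Several marker lists divided the adjacent glands as most member genes did, and brown fat genes showed the widest gap. Ucp1, which uncouples respiration from ATP synthesis in brown fat, measured 9010, 15890 and 6571 in the pools, 8266 and 10162 in glands 49 and 51, but 73.2 and 81.3 in glands 23 and 25, at most 94.4 in the tumors, and 23.9 and 32.8 in set B. So glands 23 and 25, like all 7 tumors, were under the floor of 101 for this defining marker. The mean log2 intensity of the brown adipocyte list, which holds Cox7a1 and Cox8b as well, was 10.19 to 10.63 in the pools, 8.43 and 8.54 in glands 23 and 25, 10.47 and 10.68 in glands 49 and 51, 7.65 to 8.15 in the tumors and 7.79 to 7.88 in set B. The lymphocyte list was at 7.89 and 8.40 in glands 23 and 25, 10.13 and 9.16 in glands 49 and 51, 8.04 to 8.29 in the pools and 7.61 to 8.07 in the tumors. The macrophage list was at 11.67 and 11.36 in glands 23 and 25, 12.04 and 12.32 in glands 49 and 51, 11.51 to 11.80 in the pools and 10.59 to 11.74 in the tumors. The fibroblast list had a narrower gap, at 12.75 and 12.57 against 12.81 and 13.36. White adipocyte, luminal, basal and endothelial genes did not follow this split, and muscle genes ran against it. The part of these cell types and of RNA length in the differences of the member genes was not tested.

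**Figure D4:**
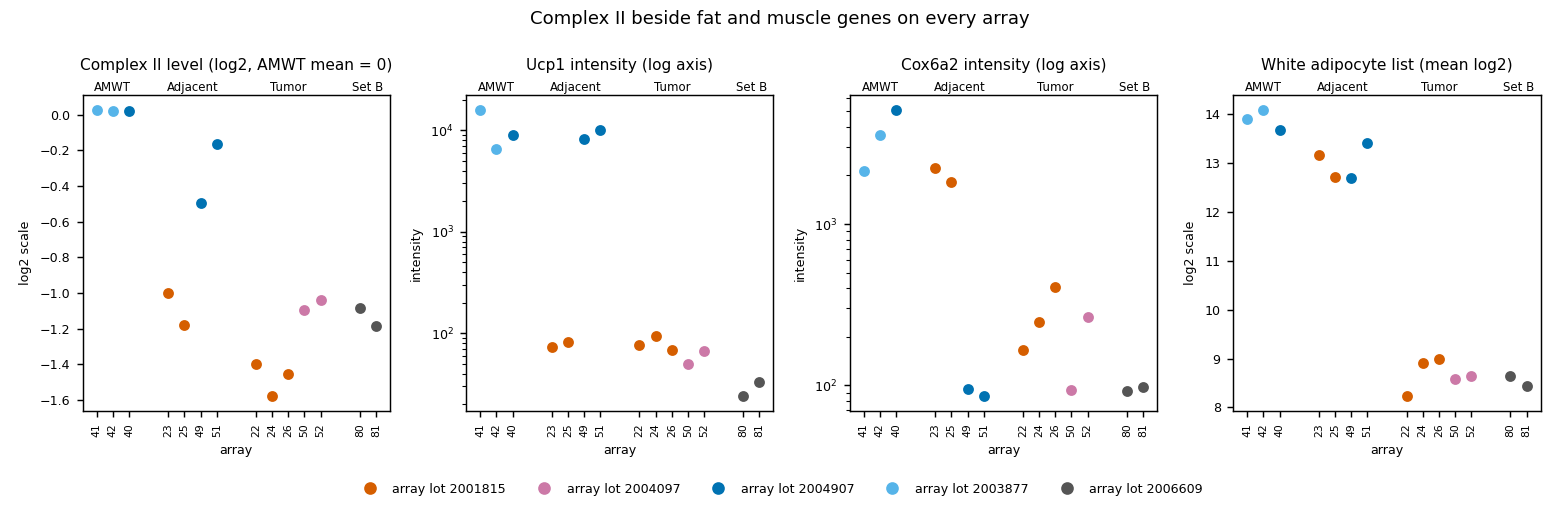
From left to right, the complex II level (log2, pool mean at 0), Ucp1 intensity (log axis), Cox6a2 intensity (log axis) and the mean log2 intensity of the white adipocyte list on every array (x axis, by group), coloured by array lot. Glands 23 and 25 lie with the tumors for complex II and Ucp1, and with the pools for Cox6a2.

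As the labels give the lots, none held both tumors and pools, and the tumor difference within a lot can then only be reached through the adjacent glands. With lot as a fixed block the difference is the sum of tumors 22, 24 and 26 against glands 23 and 25, and of glands 49 and 51 against pool 40. In that fit 1 of 63 member genes was called between Tumor and AMWT, Cox6a2 (-8.64), against 4.18% of all probe sets in either direction, and the median of the member genes turned to 0.07. Complex II kept its direction with a median of -0.62: Sdha was at -1.29 (adjusted p = 0.115, limma), Sdhb at -0.56, Sdhc at -0.56 and Sdhd at -0.68. Cycs was at -1.01. The complex III median was -0.01, with Uqcrq at -0.52, and that of complex IV was -0.21, while the complex I median turned to 0.13 and that of complex V to 0.22. The lot numbers 2004097 and 2004907 differ only in the order of 2 digits, and if they are the same lot, tumors 50 and 52 share it with pool 40. In that fit 5 of 63 genes were lower, against 6.3% of all probe sets: Sdha (-1.69, adjusted p = 0.00482, limma), Sdhd (-0.83, adjusted p = 0.0423), Ndufs1 (-0.95, adjusted p = 0.0309), Cycs (-1.72, adjusted p = 0.0315) and Cox6a2 (-5.96, adjusted p = 0.00237), with a median of -0.26 over the genes and -0.88 in complex II. The share of member genes called in that fit was near that of all probe sets, and which reading of the lots is right was not tested. With the block as labelled, 1 member was called between AdjacentNeu and AMWT, against 0.65% of all probe sets, and 1 between Tumor and AdjacentNeu, against 6.93%; both were Cox6a2. With lot as a random block, which assumes a correlation of 0.151 within a lot, 18 genes were lower and 1 higher in Tumor than in AMWT, against 12% of all probe sets called lower, with all 4 genes of complex II among them. Tumors of lot 2001815 were lower than the pools in 28 genes (14.5% of all probe sets) and tumors of lot 2004097 in 32 (12.7%), and no member gene was called between these tumors of different lots (0 of 63, with 6 at an unadjusted p under 0.05, limma). For neither the 0 nor the 6 was a share of all probe sets taken, so both lack a background to be set against.

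Tumors were set against adjacent gland to see what differs within neu mice. Of 63 member genes 4 were lower in Tumor than in AdjacentNeu and 0 higher, where 9.04% and 5.34% of all probe sets were called. In both directions the members were thus called no more often than all probe sets. By unadjusted p under 0.05 there were 10, with no share of all probe sets counted at that threshold. The 4 were Sdha, Sdhb, Uqcrq and Cox6b2, for which every tumor also lay below every adjacent gland. No other member gene did so, and 7.85% of all probe sets did, so the members were not above that share either. Sdha was 2.01-fold lower (log2 difference -1.01, SE 0.25, adjusted p = 0.0108, limma) and Uqcrq 1.77-fold lower (-0.83, SE 0.21, adjusted p = 0.0138, limma), and both calls held whichever of the 9 arrays was left out. Both were lost with lot as a fixed block, where Sdha was at -0.69 (adjusted p = 0.124, limma) and Uqcrq at -0.40 (adjusted p = 0.374, limma). Sdhb was 1.69-fold lower (adjusted p = 0.0258, limma), a call lost without tumor 22 or 24 or gland 49 or 51, and over all such fits it ran from -0.92 to -0.53. Cox6b2 was at least 2.70-fold lower (adjusted p = 0.0313, limma), a call lost without tumor 24, 26 or 50 or gland 25, 49 or 51, with values from -1.68 to -1.20. The median of the member genes was -0.11, and that of complex II was -0.60. Without gland 49 or 51 the count of calls fell to 2, where 13.9% and 10.2% of all probe sets were called in either direction.

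The set B tumors were compared with the same pools. Of 63 member genes 24 were lower and 0 higher, where 12% of all probe sets were called lower and 11.2% higher. They held 11 genes of complex I, 3 of complex II, 2 of complex III, 6 of complex IV, 1 of complex V (Atp5md, -0.89) and Cycs. Both set B tumors lay below every pool for 44 of 63 genes, against 27.5% of all probe sets. Sdhb was 3.15-fold lower (adjusted p = 0.000742, limma), Cox6a1 2.65-fold lower (adjusted p = 0.000274, limma) and Cycs 2.49-fold lower (adjusted p = 0.0186, limma). Sdhc did not pass the test: at 11754 and 12539 it lay above all 5 other tumors, with a log2 difference of -0.33 (adjusted p = 0.355, limma). Cox6a2 and Cox6b2 were under the floor on both arrays, so they were at least 33.4-fold and at least 9.03-fold lower. With 2 arrays the count is unsteady: it fell to 10 without tumor 80, 6 without tumor 81, and 14, 15 and 10 without pools 40, 41 and 42. In these fits 13.2%, 12.2%, 19.3%, 18.3% and 16.1% of all probe sets were called in either direction. With lot as a random block 15 genes were lower, where 10.1% of all probe sets were called lower. Between set B and the other tumors 0 probe sets of 8616 were called (0%), and 5 member genes had an unadjusted p under 0.05 (limma): Sdha (0.72), Sdhc (0.71), Cox6a1 (-0.43), Cox6b1 (-1.02) and Atp5d (-1.16). How many of all probe sets reach that unadjusted threshold was not counted.

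Pathways that feed the respiratory chain were followed by fixed gene lists, by their counts and medians in Tumor against AMWT. Over all probe sets tested 14.1% were called lower and 15.8% higher in this comparison, with a median of 0.16. The citric acid cycle list also took in pyruvate dehydrogenase genes (Pdha1, Pdhb and Dlat) and Pcx, which supply the cycle. Of its 16 tested genes 14 were lower and 0 higher, with a median of -1.18. Cs, citrate synthase, picked after its value was seen, was at 12786 to 16760 in the pools and 3932 to 5103 in the tumors, without overlap (3.26-fold lower, adjusted p = 3.64e-06, limma), and Pcx, pyruvate carboxylase, had the largest fall, 14.2-fold. In the fatty acid oxidation list 14 of 15 genes were lower, with a median of -1.83, led by Hadhb (6.19-fold) and Decr1 (5.79-fold), enzymes of the mitochondrial pathway. Few genes of the mitochondrial ribosome list were called, with 5 lower and 1 higher of 59 and a median of -0.14, and the import and carrier list had 5 lower and 1 higher of 26 and a median of 0.13. The ribosome list was called less often than all probe sets in both directions, and the import median was near that of all probe sets. In the glycolysis list 5 of 15 genes were higher, among them Aldoc (19.7-fold) and Slc2a1, the basal glucose transporter (4.67-fold), and 2 were lower: Hk2 (5.71-fold) and Slc2a4, the insulin-responsive transporter of fat and muscle (18.8-fold). Of 8 tested regulators Pparg, the master factor of fat cells, was at least 34.5-fold lower, with tumors 22, 26 and 52 at the floor, and Gabpa was higher. Ppargc1a and Tfam did not pass the filter. With lot as a fixed block 0 of 16 genes of the citric acid cycle list were called, with a median of -0.58. Of these genes, 4 had an unadjusted p under 0.05 (limma). In the fatty acid oxidation list 2 of 15 genes were lower, with a median of -1.04. Over all probe sets 4.18% were called in either direction in that fit, with a median of -0.03. In the same fit the glycolysis list had 1 lower and 4 higher and a median of 0.77. Of 8 regulators 1 was lower and 0 higher, so the call of Gabpa was lost. The ribosome and import lists had 0 calls, and 2 and 8 of their genes had an unadjusted p under 0.05 (limma). Their medians were 0.21 and 0.17.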

How the data were processed

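RNA of 14 samples in 4 groups was measured on 14 one-colour arrays of 12488 probe sets. The deposited values are intensities on a linear scale that the authors had already scaled: the mean of each array after trimming 2% was 1500.7 to 1500.9. The sources used here do not name the software behind them. Of the probe sets, 10855 have 1 gene symbol in the platform annotation, 396 several and 1237 none, and 10839 were named through a current gene number.

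Intensities under the 20th percentile of the table (101) were set to that floor, then taken to log2. Probe sets above their array's 40th percentile on at least 3 arrays were kept, without 66 controls, which left out 3806 and tested 8616. One model with 4 group means was fitted with limma 3.58.1 (lmFit, eBayes with trend) in R 4.3.3, with 10 residual and 5.75 prior degrees of freedom. Tests were two-sided, adjusted by Benjamini-Hochberg within each comparison and called under 0.05. Counts at an unadjusted p under 0.05 were not made over all probe sets, so they have no background share. Folds are on the floored scale. Of 1036 member values 15 were at the floor. Figures were drawn with Python 3.11.15 and matplotlib 3.10.9.

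The members and all gene lists were chosen with earlier results of these data known. Named genes were, per complex, the up to 4 with the largest and the 1 with the smallest difference in Tumor against AMWT, any called against its complex, up to 3 called by p in other comparisons, the 3 of smallest p in Tumor against AdjacentNeu, Cycs and tissue isoforms, and up to 2 called genes per pathway list. Exceptions are marked in the text. Alternatives were quantile and median scaling, no filter, only the compared groups, array lot as a fixed or random block or merged (lots 2004097 and 2004907 differ only in the order of 2 digits), values within a lot, and each array left out. The scripts were tested on simulated data. The number of arrays limits the precision.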

Additional observations from a re-analysis of the deposited data

Results flagged for a closer look

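In 6 of 72 sets of values (8.33%) a single array stood apart from the rest. Each set is the arrays of 1 group for 1 gene or complex. The measure is the gap of the outlying array to its nearest neighbour, as a share of the whole range on the log2 scale. It was held against Dixon's critical value, and in a narrow range a large share can be a small gap. For independent sets chance gives about 1 in 20. These sets share arrays and genes, so an excess was not tested. For Ndufa1, tumor 24 was the highest (900, share 0.896). For Ndufab1, tumor 52 was the lowest (2682, share 0.741). For Uqcrh, tumor 24 was the lowest (5216, share 0.843). For Atp5j, adjacent gland 49 was the highest (10200, share 0.837). Adjacent gland 25 was the highest for Cox4i1 (2075, share 0.932) and the lowest for Cox7a2l (4264, share 0.973).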

How the results depend on the processing

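Counts and medians here are over the 74 tested member probe sets, with 28, 0, 4, 24 and 0 called in Tumor against AMWT, AdjacentNeu against AMWT, Tumor against AdjacentNeu, set B against AMWT and set B against Tumor. With lot as a fixed block the Tumor against AMWT count was 1 and its median 0.11 in place of -0.45, the AdjacentNeu against AMWT count was 1 and its median -0.058 in place of -0.32, the Tumor against AdjacentNeu count was 1, and Uqcrc1 in Tumor against AMWT turned to 0.22; the set B comparisons could not be fitted with this block. With lots 2004097 and 2004907 taken as the same, Tumor against AMWT had 5 calls and a median of -0.21. With lot as a random block set B against AMWT had 15 calls. Within lot 2004907 the AdjacentNeu against AMWT median was -0.058, and within lot 2001815 Tumor against AdjacentNeu had 1 call. With no filter the medians were -0.24 in Tumor against AMWT and -0.40 in set B against AMWT, and Tumor against AdjacentNeu had 2 calls, as it had with only its own groups in the fit. Leaving out 1 array at a time gave 18 to 28 calls in Tumor against AMWT (median -0.47 to -0.39), 0 to 5 in AdjacentNeu against AMWT (-0.46 to -0.25), 2 to 6 in Tumor against AdjacentNeu (-0.18 to 0.04), 6 to 15 in set B against AMWT (-0.65 to -0.44) and 0 in set B against Tumor (-0.24 to 0.01). Of 17 named genes called in Tumor against AMWT, 13 were called in each of these fits. Quantile normalization and median centring changed no direction of a complex median in Tumor against AMWT. The cause of these changes was not tested. No paired analysis was possible because the groups share no replicate numbers and the labels do not say which gland lay beside which tumor.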
